A study of Mus musculus with 4 samples.

Results

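The 7 genes Snrpb, Snrpd1, Snrpd2, Snrpd3, Snrpe, Snrpf and Snrpg encode the Sm core proteins of the spliceosome. They were taken by symbol from the gene table of one construct and joined to the other table by gene identifier, and all 7 were listed in both, out of 13478 genes that both tables hold. RNA immunoprecipitation (RIP-seq) had been done with an anti-Flag antibody on 15376CAFs, mouse CAFs (cancer-associated fibroblasts) of pancreatic origin per the labels, that overexpressed Flag-tagged Lin28b. The protein was either the wild type, Lin28b-WT (WT below), or a mutant deficient in RNA binding, Lin28b-MU (MU below). Each construct had 1 IP library and 1 input library, and with single libraries no difference could be checked against replicates or tested. The question the design poses is which RNAs the WT protein recovers beyond MU. The labels name neither the mutated residues nor any remaining Lin28b of the host cells, and they give no age, strain or treatment.

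Sm proteins assemble into a ring around a uridine-rich site of the spliceosomal small nuclear RNAs (snRNAs) and stay there as the core of the U1, U2, U4 and U5 small nuclear ribonucleoproteins (snRNPs). The ring is built from the heteromers B with D3, D1 with D2, and F with E and G, which the SMN complex loads onto the snRNA in the cytoplasm after the PRMT5 methylosome has methylated arginines in B, D1 and D3. Lin28b binds many mRNAs and blocks maturation of let-7 microRNAs, and its RIP measures the mRNAs that encode these proteins, not the Sm proteins or the snRNAs.

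The family was selected on the deposited levels, IP over input ratios and peaks themselves, with those of Snrpe already known to stand apart, so every value below is a description. Levels are given as FPKM, fragment counts scaled to RNA length and library size, and being per length they can be compared between genes. The headers name no unit, and FPKM was read from the values. Library depth is unknown. The authors normalised each table by itself. The column sums were 321238 FPKM in the WT input, 286718 in the WT IP, 313359 in the MU input and only 207301 in the MU IP. Lin28b stood at 13.8 FPKM in the WT input and 30.01 in the MU input, and at 8.99 and 36.7 in the IPs. Of 11 fibroblast markers 6 were listed in both tables, and Col1a2, Col3a1, Pdgfrb, Dcn and Lum were not. Vim stood at 607 and 547 FPKM in the WT and MU inputs, Fn1 at 118 and 74.6 and Sparc at 93.8 and 83.8, but Col1a1 was at 0.722 and 0.404, Acta2 at 0.227 and 0.524 and Pdgfra at 1.33 and 0.860. The tables held 4 of 5 epithelial markers, and all 4 were abundant in the inputs, with Krt8 at 601 and 494, Krt18 at 395 and 441, Krt19 at 665 and 322 and Cdh1 at 219 and 114. The listed epithelial markers summed to 1880 and 1371 FPKM and the fibroblast markers to 820.2 and 708. The collagen I, smooth muscle actin and Pdgfra levels thus went against the fibroblast label, while those of Vim, Fn1 and Sparc did not. The 4 listed epithelial markers went against the label as well. The missing Epcam did not go with those 4. The part of cell identity in the results on the Sm genes was not tested.

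In the inputs the Sm mRNAs were expressed at similar levels in both cell populations; in such bulk libraries fewer cells of a type and less RNA per cell cannot be told apart. Their summed level was 485 FPKM in the WT input and 484 in the MU input, and the highest exceeded the lowest 5.06-fold and 5.36-fold. The order differed in 1 exchange. Snrpd1 came first and Snrpe second in the WT input, Snrpe first and Snrpd1 second in the MU input, and Snrpb, Snrpf, Snrpg, Snrpd2 and Snrpd3 followed in both. Snrpf and Snrpg are neighbours at 59.4 and 59.0 FPKM in the WT input, and with single libraries no such gap can be set against a spread. Between the inputs, the log2 ratio of WT over MU ran from −0.45 for Snrpe to 0.55 for Snrpd1.

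The upstream sequences of Snrpe and Snrpf are shown because, among the entries used, only theirs reached 150 bases outside the gene (239 and 202). They were not picked for their ratios. They come from the RefSeq promoter table (GRCm38.p6), of which entries for 5 of the 7 genes were used. It had no entry for Snrpb, and none was used for Snrpd1. Snrpd1 was left out before the 150-base rule was applied, so whether it would have qualified is not known. RefSeq and the deposited tables do not place the gene starts at the same base, so each line gives the 150 bases that lie before both starts, 5′ to 3′ on the minus strand, at 1:133610292-133610441 for Snrpe and 10:93589707-93589856 for Snrpf. For Snrpg, Snrpd2 and Snrpd3 the table held 14, 0 and 0 bases outside the gene by both annotations, and none is shown. Capitals mark the letters CGGAAG or, on the other strand, CTTCCG, a core known from sites of ETS-family transcription factors.
Snrpe: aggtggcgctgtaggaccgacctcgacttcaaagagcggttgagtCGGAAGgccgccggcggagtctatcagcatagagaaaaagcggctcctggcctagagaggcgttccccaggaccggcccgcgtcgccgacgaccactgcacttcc
Snrpf: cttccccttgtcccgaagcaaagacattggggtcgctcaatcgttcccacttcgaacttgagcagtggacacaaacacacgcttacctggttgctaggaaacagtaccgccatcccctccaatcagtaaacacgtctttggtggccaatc
Snrpe held 1 match, whose first base lay 105 bases before the deposited start, and Snrpf held none. These letters were chosen after 8 motifs had been tried on promoters of the family. Of the others, searched on both strands, GGAAGTG was in Snrpe, ATTGG in Snrpf and the other 5 in neither. Over the 32851 windows of 150 bases before a RefSeq start, CGGAAG was in 10.4%, GGAAGTG in 6.10%, ATTGG in 24.5%, CCGGAA in 9.23%, CCGGAAG in 5.52%, TATAAA in 7.57%, GCGCATGC in 1.82% and GGGCGG in 28.6%; some of these motifs overlap each other. A match is a description of the sequence and says nothing of binding.

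Snrpe encodes SmE, the middle subunit of the F, E and G heteromer, and was the 1 Sm gene with more RNA in the WT IP than in its input. Its level was 86.7 FPKM in the WT input and 195 in the WT IP, against 118 in the MU input and 15.2 in the MU IP. The gene (ENSMUSG00000090553, 1:133603871-133610291, minus strand, GRCm38) was thus the highest Sm mRNA in the MU input and the highest in the WT IP, but the third in the MU IP. Relative to input it was enriched 2.25-fold with WT and 7.75-fold lower with MU. Set IP against IP, the WT level was 12.8-fold higher, while the inputs differed the other way. That fold is not scaled for the lower column sum of the MU IP.

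Its partners Snrpf and Snrpg had less RNA in both IPs than in the inputs. Snrpf, which encodes SmF, stood at 59.4 FPKM in the WT input and 14.2 in its IP, and at 68.8 and 11.01 with MU. That made it 4.17-fold lower in the WT IP, the lowest ratio of the family there, and 6.24-fold lower in the MU IP. Snrpg, which encodes SmG, stood at 59.0 and 26.1 FPKM with WT and at 62.8 and 8.54 with MU, which is 2.26-fold and 7.35-fold lower in the IP. The F, E and G mRNAs, whose products join before ring assembly, therefore had 3 unlike WT ratios of −2.06, 1.17 and −1.18 on the log2 scale, but close MU ratios of −2.64, −2.95 and −2.88.

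The D1 and D2 pair also differed within itself. Snrpd1, encoding SmD1, stood at 126.9 FPKM in the WT input and 94.7 in its IP, and at 86.5 and 35.1 with MU. Its WT log2 ratio of −0.42 fell short of the 2-fold threshold and turned to 0.06 when the table was centred on coding genes of like span, whereas with MU it was 2.46-fold lower than input. Snrpd2, encoding SmD2, stood at 44.9 and 12.65 FPKM with WT and at 43.1 and 3.76 with MU. It was 3.54-fold lower in the WT IP and 11.4-fold lower in the MU IP, the lowest MU ratio among the Sm genes, although both inputs were nearly equal for it.

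For the B and D3 pair the constructs lay closest. Snrpb, encoding SmB, stood at 83.5 FPKM in the WT input and 32.7 in its IP, and at 82.1 and 24.2 with MU. The IP was 2.56-fold lower than input with WT and 3.40-fold lower with MU. Snrpd3, encoding SmD3, was the least abundant Sm mRNA in both inputs, at 25.1 FPKM against 9.29 in the WT IP, and at 22.1 against 5.67 with MU. These levels correspond to 2.70-fold and 3.88-fold lower IPs, and the differences between constructs, 0.41 for Snrpb and 0.53 for Snrpd3 on the log2 scale, were the smallest of the family. Snrpd3 shares 422 bases with a gene on the opposite strand; the library kit is stranded, but the sources do not say how the authors counted by strand.

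**Figure D1:**
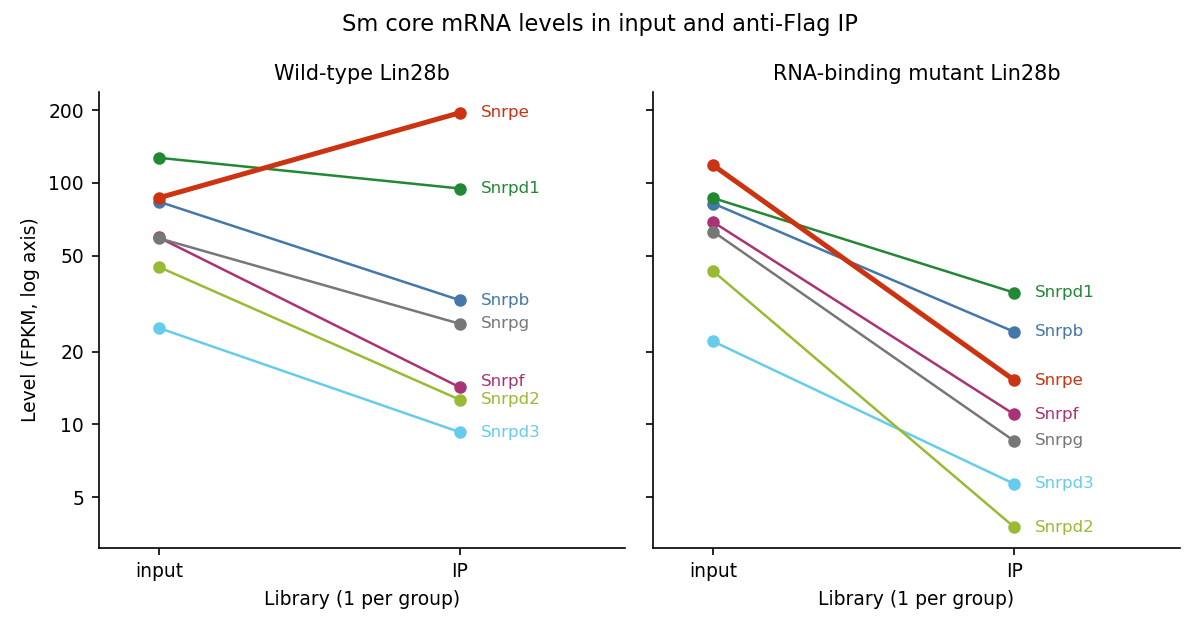
Level of each Sm core mRNA in the input and the IP of the WT (left) and MU (right) construct, in FPKM on a log axis; each point is 1 library and each line joins the 2 libraries of a gene. The Snrpe line climbs from 86.7 to 195 with WT and drops from 118 to 15.2 with MU, while the other 6 lines drop in both panels.

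Together, 1 of the 7 genes was enriched in the WT IP and 5 were lower, at 2-fold with an authors' q-value under 0.05; over all genes of the WT table, 7.40% were enriched and 21.5% lower. In the MU IP 0 of the 7 were enriched and 7 were lower, where 5.98% and 36.0% of all genes were. Of the genes that both tables hold, 947 were enriched and 2754 lower in WT and 738 and 4819 in MU, and these became 1644 and 1801 in WT and 2141 and 2974 in MU when each table was centred on its median. Since these same contrasts chose the family, the shares are given as background and nothing is read from them. The authors' deposited table gave each Sm gene a q-value under 0.05 in both comparisons, the largest being 9.37e-41 for Snrpd1 in WT. Such a q-value compares 2 libraries and not the constructs, and the sources do not say how it was computed.

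The median log2 ratio of the 7 genes was −1.35 in WT and −2.64 in MU, against −0.28 and −0.59 over all genes in both tables. Centring each table on its own median, a shift of 0.29 in WT and 0.61 in MU, left the Sm medians at −1.06 and −2.04. The Sm genes have spans from 3.82 to 24.3 kb, and short genes had lower ratios here. Across the 4923 protein-coding genes in that range the medians were −0.49 and −0.88, with 25.1% lower in WT and 44.8% in MU. Across the 990 of these that also had both inputs within the range of the Sm genes, the medians were −0.54 and −1.11, with 26.1% and 53.8% lower. Without Snrpe the Sm medians were −1.39 and −2.30.

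The WT ratio exceeded the MU ratio for 7 of 7 Sm genes, as it did for 63.2% of all genes and 77.3% of the 990. Much of this was small once each table was centred on all genes. The differences were then 0.10 for Snrpb, 0.21 for Snrpd3, 0.27 for Snrpf and 0.57 for Snrpd1. Those of Snrpd2, Snrpg and Snrpe were 1.38, 1.39 and 3.81. Before centring, the difference was at least 1 on the log2 scale for 3 of 7, Snrpe (4.12), Snrpg (1.70) and Snrpd2 (1.69), where 26.1% of all genes passed that size. Snrpe combined enrichment with WT and a lower level with MU, a pattern of 152 genes or 1.13% of all genes, and of 6 of the 990. Its difference ranked 349 among 13478 genes, 77 among the 10601 with a level of 1 FPKM or more in the higher library of each table, and 1 among the 990, a set whose limits the Sm genes themselves fixed. The WT ratio of Snrpe ranked 748 among all genes, while its MU ratio lay above only 6.87% of them.

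**Figure D2:**
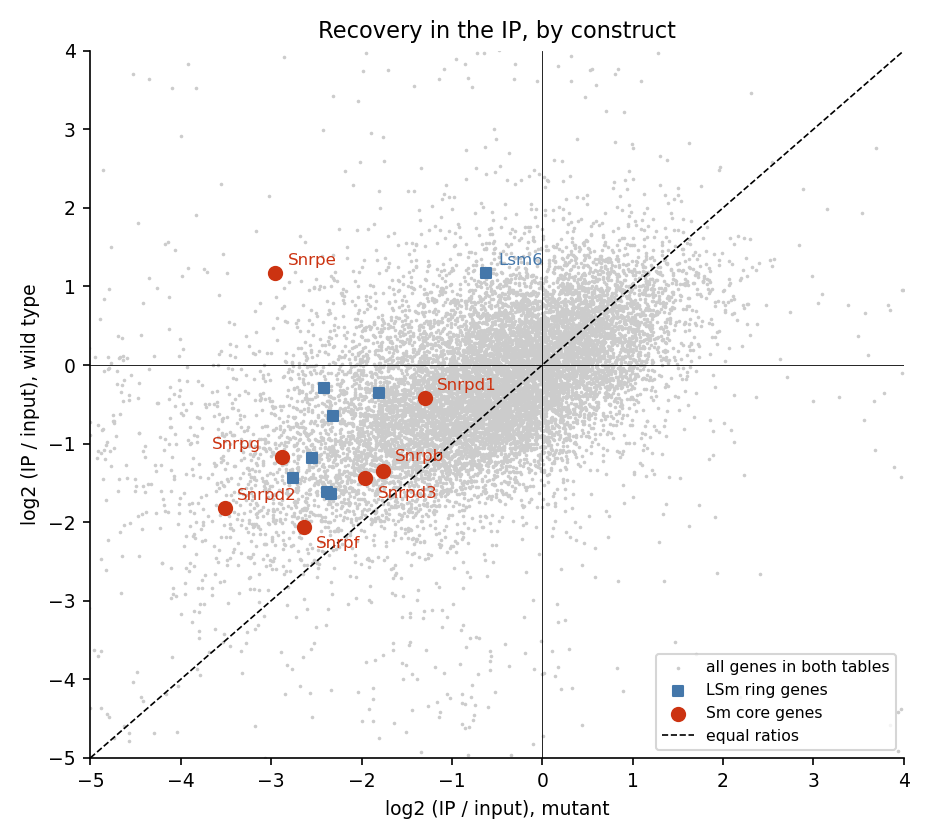
Log2 ratio of IP over input in WT (vertical axis) against MU (horizontal axis), with 1 point per gene; Sm core genes are red circles, LSm ring genes blue squares and all genes in both tables grey, of which 492 lie outside the axes. All 7 Sm genes lie above the dashed line of equal ratios, and Snrpe lies above 0 on the vertical axis and below −2 on the horizontal axis.

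The share of Snrpe in the summed Sm level differed between inputs and IPs, in opposite directions for the constructs. Snrpe made up 17.9% of the summed Sm level in the WT input and 50.7% in the WT IP, against 24.4% and 14.7% with MU. The summed level was 385 FPKM in the WT IP and 104 in the MU IP, not scaled for the lower column sum of the MU IP. Without Snrpe it was 189.7 and 88.3, from inputs of 399 and 365. For the other 6 genes, the log2 of summed IP level over summed input level, without a pseudocount, was −1.07 in WT and −2.05 in MU. Snrpd1 was the highest Sm mRNA of the MU IP, at 33.9% of the sum.

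The peak lists, which mark where along the RNA the IP signal was concentrated, held 11912 peaks for WT and 15931 for MU. Of the 7 Sm genes only Snrpe held the summit of a WT peak on its strand and 0 held a MU peak, where 25.1% and 18.6% of all genes held one. On either strand no other peak of either list overlapped an Sm gene. The nearest MU peak on the strand of Snrpe lay 9.78 kb away.

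Snrpe held 4 WT peaks. In transcript order, with folds that are the authors' own at each summit, they lay at 1:133609730-133609929 (fold 5.98), 1:133608926-133609125 (3.25), 1:133606542-133606767 (6.30) and 1:133603907-133604256 (7.24). The first 2 were 200 bases wide, the narrowest width in the list. The last was the widest and the strongest of the 4, with its summit 209 bases from the 3′ end of the span, and by −log10 q-value it ranked 55 in the whole list, where the other 3 ranked 2536, 3309 and 8817. By fold it ranked 1788, and the median fold of the list was 3.77. Together the 4 peaks covered 976 bases or 15.2% of the span. Exon models were not used here, so whether a peak lies in an exon, an intron or an untranslated region is not stated, and the peak sequences are not printed.

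**Figure D3:**
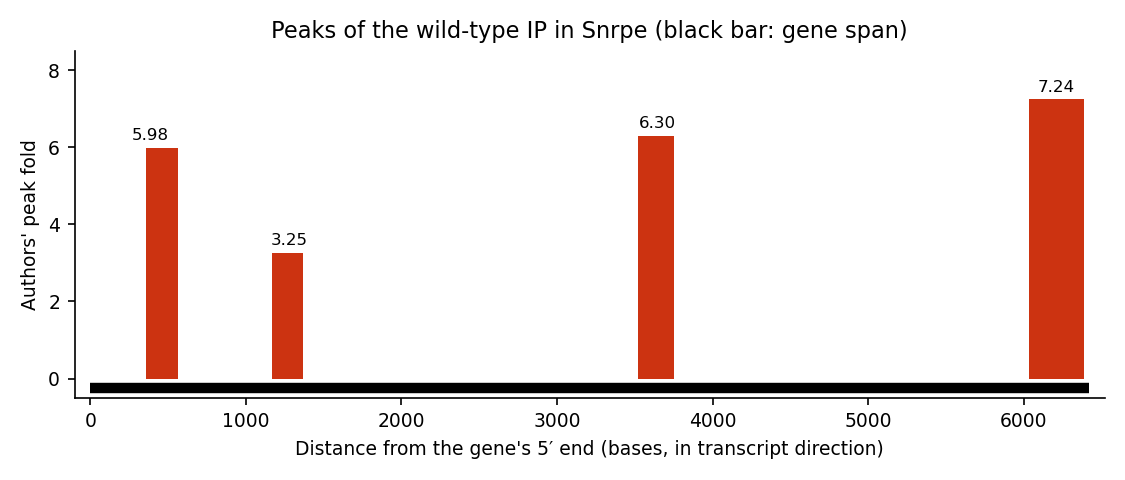
Peaks of the WT IP along Snrpe, as distance in bases from the 5′ end of the gene in transcript direction; bar width is the width of the peak and bar height the authors' fold at its summit, and the black bar is the gene span. The 4 folds are 5.98, 3.25, 6.30 and 7.24, and the strongest peak lies at the 3′ end.

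Having 4 or more WT peaks and no MU peak was a property of 223 genes, 1.65% of all genes. Of the 947 genes enriched in WT 67.6% held a WT peak, but of the 3383 genes with a WT peak only 640 were enriched. Enrichment and peaks come from the same IP library and are not separate observations of Snrpe. A gene can also lack a called peak because its signal is too thin at the unknown depth, which for Snrpd2 and Snrpd3 concerns MU IP levels of 3.76 and 5.67 FPKM. RefSeq places a retrogene copy of Snrpe, Snrpert, at 2:131321940-131322370. It was not listed by symbol in the MU table, where symbols are given, and how reads shared between such copies were counted is not stated in the sources, which leaves the level of Snrpe uncertain to that extent. The Snrpb paralogue Snrpn, which encodes SmN, was not listed by symbol either.

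The genes of the neighbouring spliceosomal complexes came from lists drawn up by complex and not by how the genes moved. Earlier results of these data were known when the lists were chosen. The LSm proteins are relatives of the Sm proteins; LSm2 to LSm8 form the ring on U6 snRNA, and LSm1 replaces LSm8 in the ring that acts in mRNA decay. As background for the counts in each list, 7.40% of all genes were enriched and 21.5% lower in WT, and 5.98% and 36.0% in MU. Of the 8 LSm ring genes, 1 was enriched and 4 were lower in WT, and 0 and 7 in MU, with medians of −0.92 and −2.36. All 8 had the higher ratio in WT, by a median of 1.40, where 63.2% of all genes had the higher ratio in WT. Lsm5 had the largest difference (2.13), from −0.29 in WT to −2.41 in MU, and Lsm7 the smallest (0.69). Lsm3, Lsm2 and Lsm4 had WT ratios of −1.44, −1.18 and −1.62 and MU ratios of −2.76, −2.55 and −2.39. Lsm6, named after its values were seen, resembled Snrpe in WT, with 14.3 FPKM in the input, 32.1 in the IP and 2 peaks, but its MU ratio was −0.63, short of the threshold.

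Of the 5 other LSm genes, 0 were enriched and 1 was lower in WT, and 0 and 2 in MU. Lsm10, whose product takes the place of SmD1 in the U7 snRNP of histone mRNA processing, had ratios of −1.62 and −2.71, whereas Lsm11, whose product takes that of SmD2, had −0.92 and 0.37 at input levels of only 2.12 and 2.44 FPKM. Lsm12 had 0.03 and −1.35. The proteins specific to the U1 snRNP gave medians of −0.95 and −1.98 over 3 genes, of which 1 was lower in WT and 2 in MU. Snrpc, encoding U1-C, was 8.40-fold lower in the MU IP and 1.93-fold lower in the WT IP, and Snrpa, encoding U1-A, was 3.95-fold and 2.18-fold lower.

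Among 12 genes of the U2 snRNP, 1 was enriched and 1 lower in WT, and 1 and 6 in MU, with medians of 0.35 and −1.01. Sf3b4 had the largest difference, 2.66, with 36.8 FPKM in the WT input and 64.7 in its IP against 51.1 and 14.2 with MU. Phf5a, a small subunit of the SF3b complex, had ratios of 0.88 and −1.53, Sf3b6 had −0.28 and −2.03, and Sf3b5 had −2.20 and −2.80. Sf3b1, encoding the scaffold of SF3b, ran the other way, with ratios of 0.93 and 1.44 and with 15 WT and 21 MU peaks. Snrpa1, encoding U2-A′ and named after its values were seen, was the other gene of these lists to be enriched with WT and lower with MU, 2.42-fold and 2.39-fold. It held 5 WT peaks and 0 MU peaks, like Snrpe.

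The 17 genes of the U5 and U4/U6 snRNPs had medians of −0.17 and −0.41, with 0 enriched and 1 lower in WT, and 1 and 4 in MU. The enriched one, named after its values were seen, was Prpf8, which encodes the scaffold at the catalytic centre of the spliceosome, with a MU ratio of 1.06 and 20 MU peaks against 1 WT peak. Ppih, a cyclophilin of the tri-snRNP, had the largest difference (1.75), while Snrnp27 had ratios of −1.32 and −2.47, Snu13, which binds U4 snRNA, −0.63 and −2.25, and Txnl4a −0.45 and −1.66. Snrnp200, the helicase that unwinds U4 from U6, had the lowest difference (−0.97), with 1 WT peak and 17 MU peaks. Of the 8 genes of the minor spliceosome, 0 were enriched and 1 was lower in WT, and 0 and 5 in MU, with medians of −0.10 and −1.18. Zcrb1 had ratios of −0.11 and −2.08, Zrsr2 −0.09 and −1.78, Zmat5 −1.75 and −2.74, Snrnp35 −0.61 and −1.25 and Snrnp25 −0.61 and −1.11.

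The list of genes for Sm ring assembly and import gave medians of −0.28 and −0.73 over 16 genes. Of these, 1 was enriched and 1 lower in WT, and 0 and 7 in MU. Smn1, encoding the SMN protein, stood at 22.5 FPKM in the WT input and 14.4 in its IP, and at 33.4 and 6.32 with MU. Of the Gemin proteins that accompany it, Gemin7, Gemin6 and Gemin8 had MU ratios of −2.64, −2.01 and −1.64 and WT ratios of −1.47, −0.49 and 0.19. Gemin5, which recognises the snRNA, had −0.81 in WT and 0.06 in MU. The enriched gene was Strap, a component of the SMN complex, at 56.4 FPKM in the WT input and 148 in its IP, with 7 WT peaks and 1 MU peak; it was named after its values were seen.

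**Figure D4:**
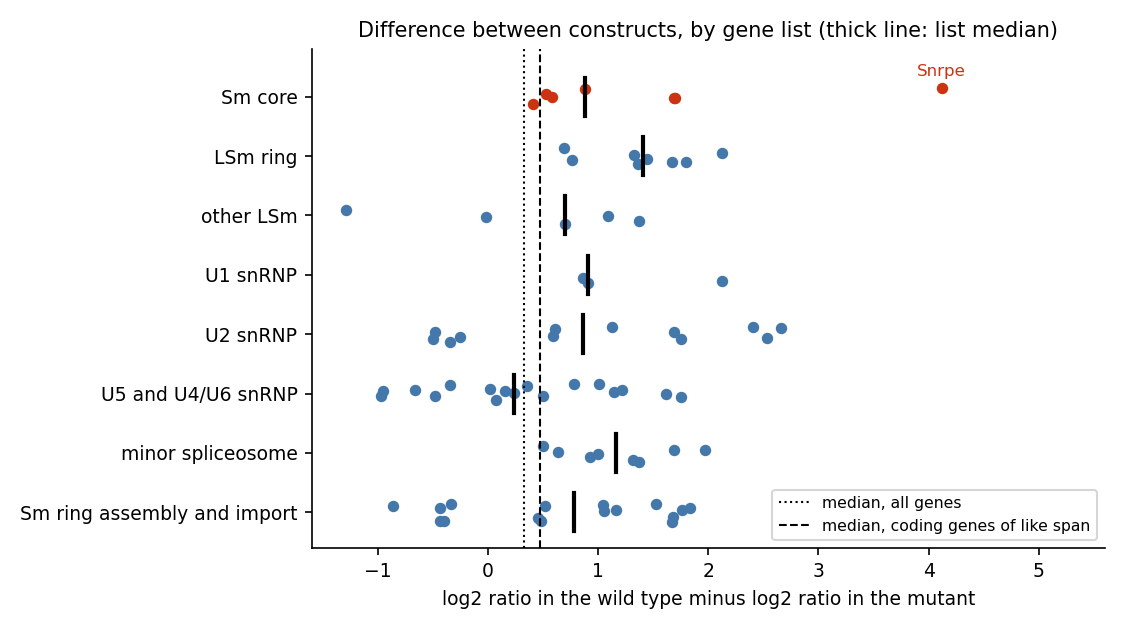
Difference between the constructs, as the log2 ratio in WT minus that in MU, with 1 point per gene, by gene list; points are spread vertically for legibility, the thick line is the median of the list, and the dotted and dashed lines are the medians over all genes (0.32) and over coding genes of like span (0.47). The Sm median is 0.88, Snrpe stands at 4.12, and the largest value in the other lists is 2.66.

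Several list medians changed sign when each table was centred on all genes. The U5 and U4/U6 list moved to 0.12 in WT and 0.19 in MU, and its median difference from 0.24 to −0.08. The WT medians of the minor spliceosome and of the assembly and import list moved to 0.19 and 0.015, and the MU median of the other LSm genes to 0.07. The medians of the LSm ring and the U1 list stayed below 0 in both constructs.

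Over these 69 genes the difference was above 0 for 53 (76.8%) and at least 1 for 32 (46.4%), with a median of 0.91. A WT peak was held by 23 (33.3%) and a MU peak by 12 (17.4%). The shares of all genes were 63.2%, 26.1%, 25.1% and 18.6%, and among the 990 genes of like span and level 77.3%, 32.8%, 26.9% and 10.9%. The difference between these shares was not tested. Among 9955 other protein-coding genes at 1 FPKM or more in the higher library of each table, those most like Snrpe were found by the Euclidean distance over 4 values, the log2 ratios and the log2 input levels of both constructs. The nearest were Ndufb8 (distance 0.78), a complex I subunit gene, Hspe1 (0.99), a mitochondrial chaperonin gene, Myl12a (1.16), a myosin light chain gene, and the ribosomal protein genes Rpl36al (1.29) and Rpl22 (1.33). Their WT ratios, from 0.02 for Rpl22 to 0.74 for Myl12a, were all below the 1.17 of Snrpe, and Ndufb8, Hspe1 and Myl12a held 2, 1 and 2 WT peaks and 0 MU peaks. Nearest to the median of the 7 were Dynll1 (0.26), Bud31 (0.32), Snrnp27 (0.33), Lsm2 (0.36) and Hmgb2 (0.37), none with a peak in either list. The nearest genes lay closer to the median of the family than to Snrpe. Since Snrpe was taken as the member with the largest difference, nothing is read from this.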

How the data were processed

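The data were 2 gene tables and 2 peak lists from 4 RIP-seq libraries, 1 per group. Per the labels' protocols, libraries were made with a stranded mRNA kit. MACS2 2.2.7.1, HISAT2 2.1.0, bedtools and HOMER 4.11.1 are named per the submitters' processing notes, beside the builds mm10 and GRCm38, without their roles. The authors deposited 1 level per gene and library, read here as FPKM, together with a log2 ratio, a p-value and a q-value of IP over input. The deposited peak lists, 1 per IP, hold a score, a fold, −log10 p and q-values and the summit distance.

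Log2 ratios were computed as (IP + 0.01) over (input + 0.01) FPKM, which equals the deposited log2 ratio to within 1.57e-09, and folds from them. Genes were called at 2-fold with an authors' q-value under 0.05. A peak belonged to a gene whose span held its summit on its strand. Work was done in Python 3.11.15 with pandas 2.3.3, and the steps were tested on simulated data. The members, lists and alternatives were chosen with earlier results of these data known. Genes named were the 7 members and Snrpn, and per list the highest and lowest difference and up to 4 called genes. Also named were the 5 nearest genes to Snrpe and to the Sm median, Lin28b and cell type markers. Alternatives were another pseudocount, centring on all genes or on genes of like span, other call and peak rules, and leaving out Snrpe. Score and p-value columns were not used.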

Additional observations from a re-analysis of the deposited data

Results flagged for a closer look

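Snrpe was enriched with WT and lower with MU, a difference of 4.12 in log2 ratio between the constructs. The same opposite directions were seen for Snrpa1, with a difference of 2.53. With 1 library per group neither difference was tested.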

How the results depend on the processing

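The direction of each Sm median was kept under every setting run. With a pseudocount of 1, the Sm medians were −1.33 in WT, −2.54 in MU and 0.86 for the difference; centred on all genes they were −1.06, −2.04 and 0.57; centred on genes of like span −0.87, −1.76 and 0.48. Without Snrpe, a setting chosen after seeing the data, they were −1.39, −2.30 and 0.73. For the 69 genes of the other lists the medians were −0.27, −0.83 and 0.80 with a pseudocount of 1 and 0.016, −0.25 and 0.60 after centring, against −0.28, −0.86 and 0.91. Centring on all genes left 4 Sm genes lower in WT and 6 in MU, with Snrpe still enriched; Snrpg and Snrpd1 were the genes lost. A threshold of 1.5-fold, no q-value or a level of at least 1 left the counts of called Sm genes as they were. Wild-type peaks in Snrpe numbered 4 under each overlap rule and 3 at a fold of at least 5. No paired analysis was possible because each group is 1 library. Depth is unknown, so no counting interval stands behind any level, and a missing peak is no sign that RNA was not bound.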
